A study of Mus musculus with 12 samples.

Results

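Ythdf3, Gda, Tmem47 and Add3 are 4 genes with several probe sets each on the Affymetrix MG-U74B array, and in each of them 1 probe set was much lower in hippocampi of kainate-injected mice than in those of saline-injected mice while another probe set of the same gene differed far less. A probe set is a group of short oligonucleotides that reads 1 stretch of a transcript. All probe sets annotated to 1 of these symbols alone were taken, which gave 11 of 12411 probe sets, and 4 of the 7542 genes with a probe set of their own. Ythdf3, Tmem47 and Add3 had 3 probe sets each and Gda had 2. The genes were chosen by the measured kainate minus saline differences, so those differences are described here, and nothing is read from a count of those that passed a test.

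The arrays formed 4 groups of 3, namely labelled mutant with kainate, labelled mutant with saline, control with kainate and control with saline. Kainate, an agonist of glutamate receptors that evokes seizures, was given intraperitoneally at 20 mg/kg, saline served as vehicle, and hippocampi were taken 1 h later from littermates of both sexes aged 5 to 6 weeks. According to the series title the mutants lack CREB and CREM, a pair of transcription factors activated by cAMP and calcium signals. Handling for 5 days is recorded for the animals of every group. The labels name no allele, Cre driver or strain. Each array carried RNA pooled from 3 animals, and replicates are numbered 1, 2 and 3 in every group, with no word in the labels on what a number stands for.

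Array medians lay between 3.77 and 4.07 on the log2 scale of the deposited GCRMA values, and a filter that asked for 3 arrays above 4 left 6334 probe sets for testing, including all 11 of the 4 genes. The Creb1 probe set was higher in labelled mutant arrays, at 8.23 ± 0.12 with saline against 7.35 ± 0.35 in controls (SD, n = 3 each), and the Crem probe set was not over 4 in any array. Neither checks the genotype, so these arrays are named here by their label. Of 15 markers of hippocampal principal neurons 7 were measured, among them Neurod2, Calb1 and Slc17a7.

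The 4 genes belong to different systems. Ythdf3 is a cytoplasmic reader protein that binds N6-methyladenosine in mRNA and, with Ythdf1 and Ythdf2, influences translation and decay of the marked transcripts. Gda encodes guanine deaminase, which turns guanine into xanthine, and in neurons the same protein, called cypin, binds the synaptic scaffold PSD-95 and promotes dendrite branching. Tmem47 is a multi-pass membrane protein of the PMP22 and claudin family found at cell junctions. Add3 encodes gamma-adducin, which caps actin filaments and links them to spectrin beneath the plasma membrane.

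CREB binds a palindromic motif, TGACGTCA, or its shorter core TGACG. In RefSeq windows of GRCm38.p6 that run from 250 bases before to 50 bases after a gene start, 1.79% of 32851 windows held TGACGTCA on either strand and 20.8% held TGACG, which lies within TGACGTCA. None of the 5 windows listed for Gda, Tmem47 and Add3 held either, which says only that these letters are not in these windows. The 250 bases before the start of Gda and of Tmem47, the pair of genes with 1 listed start, are shown because the series concerns the loss of CREB. They are written 5′ to 3′ on the strand of the gene, without capitals since no motif was found. The Gda stretch is chr19:21472662-21472911 on the minus strand and the Tmem47 stretch is chrX:81070394-81070643 on the plus strand, and their GC contents were 50% and 65.6%.
Gda: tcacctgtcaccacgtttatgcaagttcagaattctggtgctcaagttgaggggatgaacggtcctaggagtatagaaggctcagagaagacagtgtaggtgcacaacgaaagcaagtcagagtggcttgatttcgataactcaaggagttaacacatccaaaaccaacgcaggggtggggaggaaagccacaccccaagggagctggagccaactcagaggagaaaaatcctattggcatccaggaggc
Tmem47: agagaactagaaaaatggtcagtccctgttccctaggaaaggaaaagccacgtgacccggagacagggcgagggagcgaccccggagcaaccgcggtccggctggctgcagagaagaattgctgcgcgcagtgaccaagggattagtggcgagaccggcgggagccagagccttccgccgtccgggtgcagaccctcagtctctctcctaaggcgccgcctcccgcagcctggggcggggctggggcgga

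The largest kainate differences of the 4 genes were seen in arrays of replicate numbers 2 and 3, in both genotypes, while the pairs numbered 1 differed by between -0.40 and 0.42 in all 11 probe sets. In numbers 2 and 3 the lowest probe set of each gene was at least 2.05 to 5.46 times lower with kainate than with saline, with values under the filter level of 4 set to 4. The probe sets 115573_at of Gda and 110854_at and 113593_at of Add3 did not follow this course. Their differences were as large in size in number 1 as in another number, except for 110854_at in controls. There the pairs gave -0.004, 0.35 and -0.14. In this bulk tissue, fewer cells of a type and less RNA per cell cannot be told apart. With all 12 arrays none of the 11 probe sets passed in labelled mutant arrays, where 0.174% of all tested probe sets passed, or in control arrays, where 0.158% passed (limma, adjusted p under 0.05). Differences are kainate minus saline on the log2 scale, so that a value below 0 means lower with kainate.

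Ythdf3, the mRNA methylation reader, held the largest difference, in probe set 114560_at. Its log2 values in labelled mutant arrays 1, 2 and 3 were 5.68, 3.61 and 3.15 with kainate, against 5.32, 5.98 and 5.83 with saline. In control arrays they were 5.83, 4.02 and 3.00 with kainate, against 5.70, 6.79 and 6.13 with saline. The kainate arrays 2 and 3 were thus below every saline array in both genotypes, whereas the kainate array 1 lay within the saline values, so that the groups overlapped in labelled mutants and in controls. The mean difference was -1.56 ± 1.67 in labelled mutants and -1.92 ± 1.79 in controls (SD over 3 replicate numbers), smaller than or close to its spread. Over numbers 2 and 3 alone it was -2.52 and -2.95. Since 2 kainate arrays of labelled mutants and 1 of controls were under 4 there, the fold is a bound, at least 3.75-fold lower in labelled mutants and at least 5.46-fold lower in controls.

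The other 2 probe sets of Ythdf3 showed smaller differences of the same sign. Probe set 105209_at read 6.10, 5.26 and 5.12 in labelled mutant kainate arrays, against 6.22, 6.30 and 5.96 in labelled mutant saline arrays. It read 5.95, 5.36 and 5.34 in control kainate arrays, against 6.04, 6.39 and 5.72 in control saline arrays. Its difference was -0.12, -1.04 and -0.84 by number in labelled mutants and -0.08, -1.02 and -0.38 in controls, so array 1 again showed the least. Probe set 111252_at ranged from 5.02 to 5.30 over labelled mutant kainate arrays and from 5.34 to 5.96 over labelled mutant saline arrays, without overlap. In controls it ranged from 5.04 to 5.26 with kainate and from 5.20 to 5.87 with saline, with overlap. Its mean differences were -0.42 ± 0.47 and -0.31 ± 0.37, and the pair numbered 2 differed most, by -0.94 and -0.72.

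Gda, the guanine deaminase gene, had 1 probe set that was high in all arrays and 1 that was over 4 in only 4 of 12. Probe set 164069_at read 2.78, 2.86 and 3.09 in labelled mutant kainate arrays, against 2.89, 4.85 and 5.22 in labelled mutant saline arrays. It read 2.88, 3.17 and 3.21 in control kainate arrays, against 2.72, 5.29 and 5.84 in control saline arrays. All 6 kainate arrays and both saline arrays numbered 1 stayed under 4, so the 4 values over 4 belonged to saline arrays numbered 2 and 3 and the probe set passed the filter through them. With kainate values set to 4, the probe set was at least 2.05-fold lower in labelled mutants and at least 2.96-fold lower in controls over these numbers, where the deposited values differed by -2.06 and -2.38.

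The second Gda probe set, 115573_at, stayed between 8.34 and 9.44 over the 12 arrays. It read 9.44, 8.59 and 8.34 in labelled mutant kainate arrays, against 9.03, 9.00 and 8.64 in labelled mutant saline arrays. It read 8.99, 8.49 and 8.69 in control kainate arrays, against 9.39, 8.88 and 8.89 in control saline arrays. The groups overlapped in both genotypes, and the mean difference was -0.10 ± 0.45 in labelled mutants and -0.33 ± 0.11 in controls (SD over 3 replicate numbers). In number 1 the sign differed between genotypes, at 0.42 in labelled mutants and -0.40 in controls.

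Tmem47, the junction protein gene, was lower with kainate in numbers 2 and 3 by all 3 of its probe sets, in different amounts. Probe set 107774_at read 8.24, 6.04 and 6.16 in labelled mutant kainate arrays, against 7.91, 8.74 and 8.21 in labelled mutant saline arrays. It read 7.46, 6.12 and 5.89 in control kainate arrays, against 7.44, 8.37 and 7.94 in control saline arrays. Kainate arrays 2 and 3 lay more than 1 log2 unit below every saline array of their genotype, while the kainate array 1 was above 2 saline arrays in labelled mutants and above 1 in controls. The difference over numbers 2 and 3 was -2.37 (5.17-fold lower) in labelled mutants and -2.15 (4.45-fold lower) in controls, and in number 1 it was 0.34 and 0.01.

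Probe set 111578_at of Tmem47 read 9.57, 8.48 and 8.78 in labelled mutant kainate arrays, against 9.40, 9.82 and 9.52 in labelled mutant saline arrays. It read 8.72, 8.01 and 8.01 in control kainate arrays, against 9.00, 9.36 and 9.19 in control saline arrays. Here the control groups did not overlap, and the labelled mutant groups overlapped through array 1. Mean differences were -0.64 ± 0.76 in labelled mutants and -0.94 ± 0.57 in controls. Probe set 106831_at ranged from 4.22 to 4.95 over labelled mutant kainate arrays and from 5.24 to 5.38 over labelled mutant saline arrays, without overlap, and from 4.50 to 5.10 and 4.88 to 5.17 over control kainate and control saline arrays, with overlap. Its mean differences were -0.69 ± 0.44 in labelled mutants, close to that of 111578_at, and -0.27 ± 0.45 in controls, the smallest of the 3 probe sets there.

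Add3, the gamma-adducin gene, combined 1 probe set that was lower with kainate, 1 that was level and 1 whose mean was slightly lower in labelled mutants and level in controls. Probe set 162765_at read 6.40, 4.25 and 4.86 in labelled mutant kainate arrays, against 6.50, 6.36 and 5.69 in labelled mutant saline arrays. It read 5.91, 4.16 and 3.60 in control kainate arrays, against 6.14, 5.60 and 6.05 in control saline arrays. The groups overlapped through array 1 alone. The sizes in numbers 2 and 3 differed between genotypes in opposite ways, with -2.11 and -0.83 in labelled mutants and -1.45 and -2.45 in controls, so neither number had the larger difference throughout.

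Probe set 110854_at of Add3 stayed between 8.84 and 9.25 over the 12 arrays, with means of 9.10 ± 0.13 in labelled mutant kainate, 9.04 ± 0.15 in labelled mutant saline, 8.97 ± 0.19 in control kainate and 8.90 ± 0.07 in control saline arrays (SD, n = 3). No neighbouring pair in this order differed by more than the larger SD. Probe set 113593_at gave 7.20 ± 0.42 in labelled mutant kainate, 7.52 ± 0.23 in labelled mutant saline, 7.22 ± 0.33 in control kainate and 7.20 ± 0.20 in control saline arrays. Its kainate difference was -0.32 in labelled mutants and 0.03 in controls, beside SDs over numbers of 0.24 and 0.25. The labelled mutant pairs gave -0.40, -0.05 and -0.52, all below 0. With each array centred on its median, the control differences of 110854_at (0.07) and 113593_at (0.03) turned to -0.07 and -0.11, as that scaling moved the median difference of all tested probe sets in controls by -0.14.

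**Figure D1:**
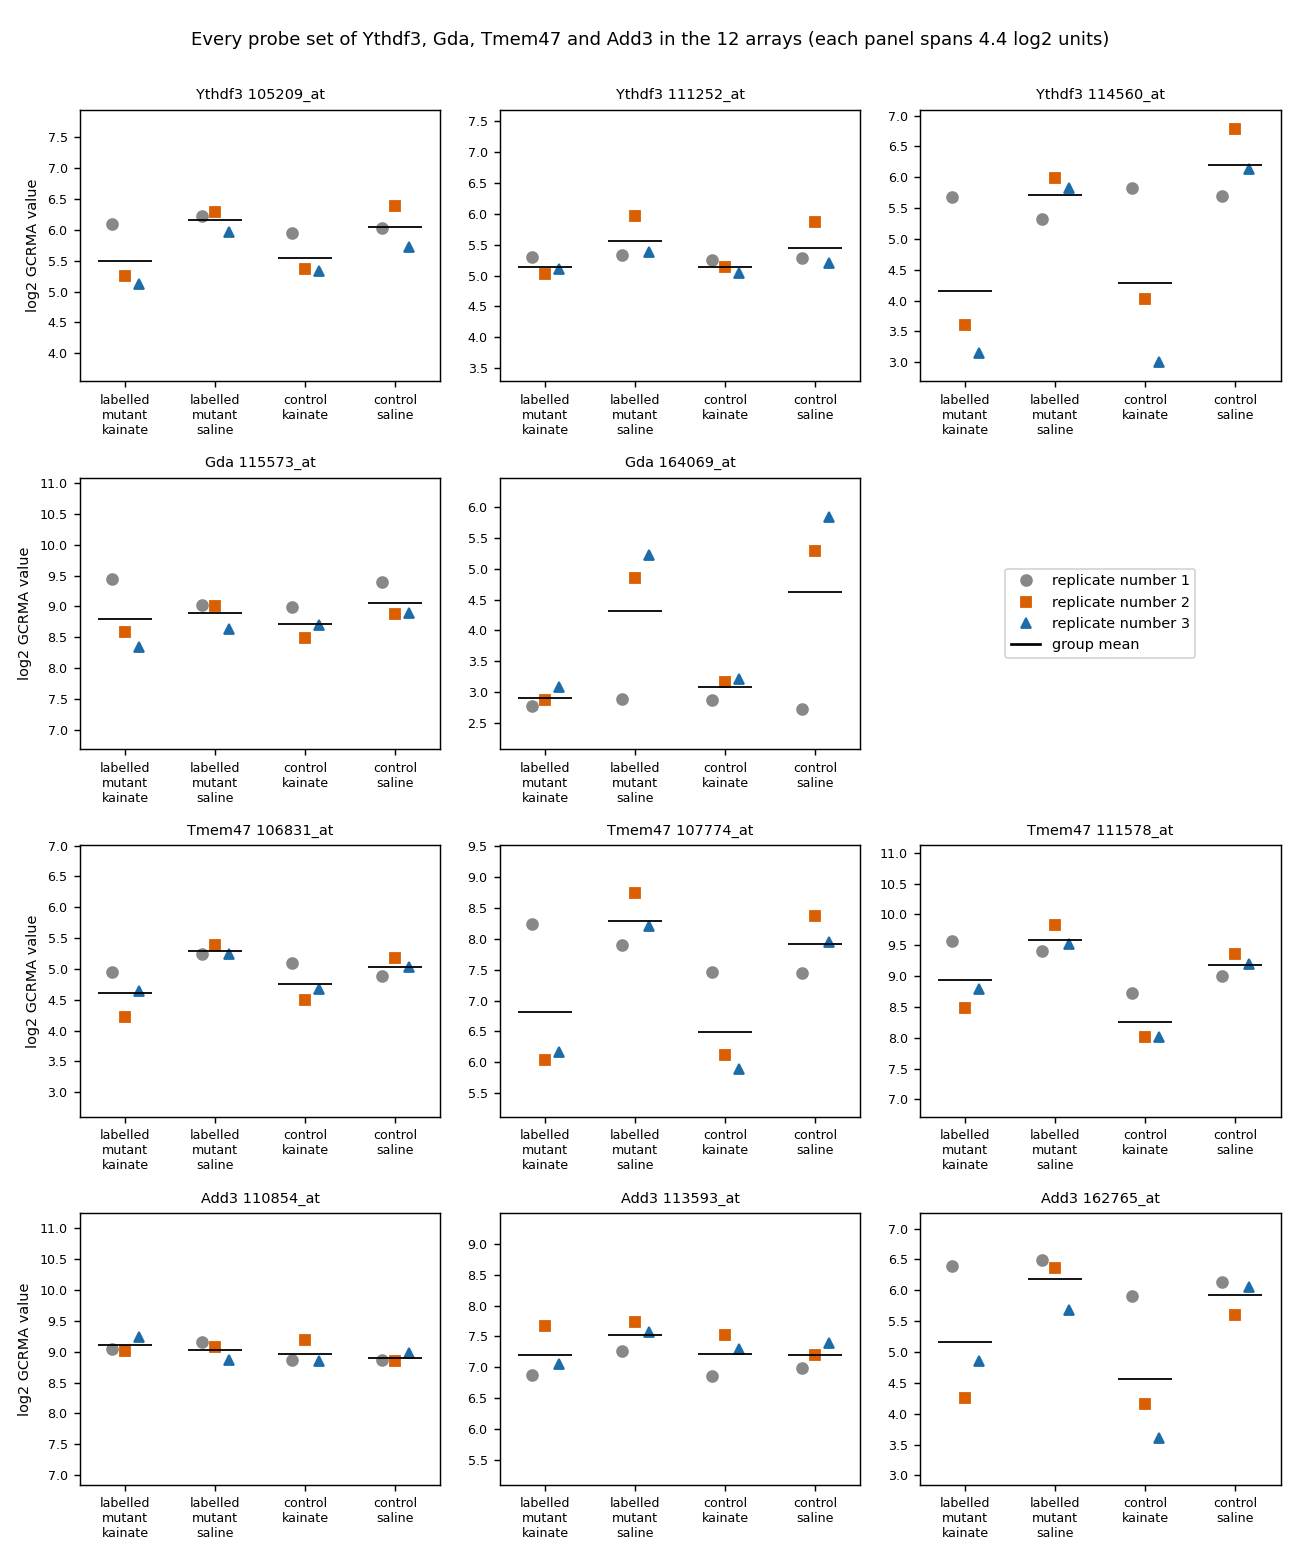
Log2 GCRMA values (vertical axis) of all 11 probe sets in the 4 groups (horizontal axis), 1 panel per probe set, with points for single arrays by replicate number and lines for group means. In 114560_at, 107774_at and 162765_at the kainate arrays numbered 2 and 3 lie below the saline arrays, and in 164069_at the saline arrays numbered 2 and 3 stand above all others.

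The order of the 4 group means put both kainate groups below both saline groups in 9 of the 11 probe sets, the exceptions being 110854_at and 113593_at of Add3. This order describes the values that chose the genes, and the share of all tested probe sets with it was not counted. For 114560_at the order was labelled mutant kainate (4.15 ± 1.35), control kainate (4.28 ± 1.43), labelled mutant saline (5.71 ± 0.34) and control saline (6.21 ± 0.55), where no step between neighbours went clearly past the larger SD of the pair. For 107774_at it was control kainate (6.49 ± 0.85), labelled mutant kainate (6.82 ± 1.24), control saline (7.92 ± 0.46) and labelled mutant saline (8.28 ± 0.42). Within each treatment these groups differed by less than the larger SD of the pair.

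The plot of differences by number shows how the 11 probe sets parted. In the pairs numbered 1, none of the 11 probe sets was below -1 in either genotype, against 0.237% of all tested probe sets in labelled mutants and 0.568% in controls. In the pairs numbered 2, 7 of 11 were below -1 in labelled mutants and 6 of 11 in controls, beside 2.48% and 1.97% of all tested. In the pairs numbered 3 the counts were 3 and 5 of 11, beside 1.39% and 3.68%. These counts describe the values that chose the genes.

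**Figure D2:**
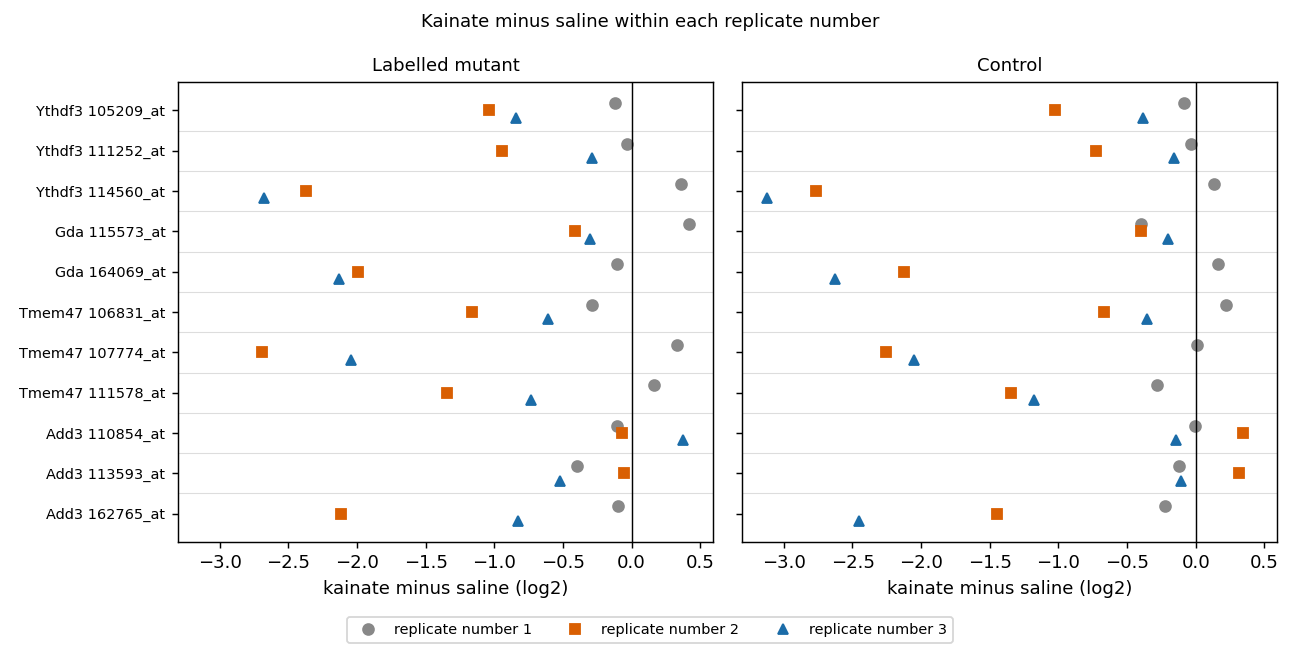
Kainate minus saline on the log2 scale (horizontal axis) for each probe set (vertical axis), with 1 point per replicate number, in labelled mutants (left) and controls (right). Points of number 1 lie between -0.40 and 0.42, while those of numbers 2 and 3 reach -2.69 in labelled mutants and -3.13 in controls.

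Kainate differences of other probe sets were read by number as well. Dusp5, a phosphatase of ERK induced by neuronal activity and named here after its values were seen, was higher with kainate by 2.63, 2.64 and 2.68 in labelled mutants 1, 2 and 3 and by 2.46, 2.29 and 2.36 in controls. Over all 6334 tested probe sets the kainate differences spread less in number 1, with an SD of 0.292 in labelled mutants and 0.299 in controls, than in number 2 (0.441 and 0.419) and number 3 (0.389 and 0.488). The Dusp5 differences were similar in all 3 numbers. It is 1 gene, and what the replicate numbers stand for was not tested.

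Saline arrays of the different numbers also differed. For 114560_at of Ythdf3 the mean over both genotypes was 5.51 in the saline arrays numbered 1 and 6.18 in those numbered 2 and 3, and kainate arrays were at 5.76 and 3.45. For 164069_at of Gda the saline arrays were at 2.80 in number 1 and 5.30 in numbers 2 and 3, and kainate arrays at 2.83 and 3.08. The near-zero difference in number 1 therefore went with a kainate level like that of saline arrays for Ythdf3, and with a saline level like that of kainate arrays for Gda. For 107774_at of Tmem47 and 162765_at of Add3, values in number 1 resembled those of Ythdf3, with 7.67 and 6.32 in saline arrays and 7.85 and 6.16 in kainate arrays.

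Probe sets with the same course were counted, with thresholds chosen after the data were seen. A difference below -1 in all 4 pairs of numbers 2 and 3 was found in 32 of 6334 tested probe sets, and 24 of these (0.379% of those tested) stayed within 0.5 of 0 in both pairs numbered 1. Among the 24 were 114560_at of Ythdf3, 107774_at of Tmem47 and 164069_at of Gda, with mean differences over numbers 2 and 3 of -2.74, -2.26 and -2.22 in the deposited values, of which the first and last rest on kainate values mostly under 4. The 24 also held probe sets of Dr1 (-1.95), a transcriptional repressor, and Selenot (-1.93), a selenoprotein of the endoplasmic reticulum. Further members of the 24 were single probe sets of the receptor genes Grm5 (-1.36) and Gabra4 (-1.41) and the glutamate transporter gene Slc1a3 (-1.26). The opposite course, above 1 in all 4 pairs and within 0.5 of 0 in number 1, was found in 5 probe sets.

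**Figure D3:**
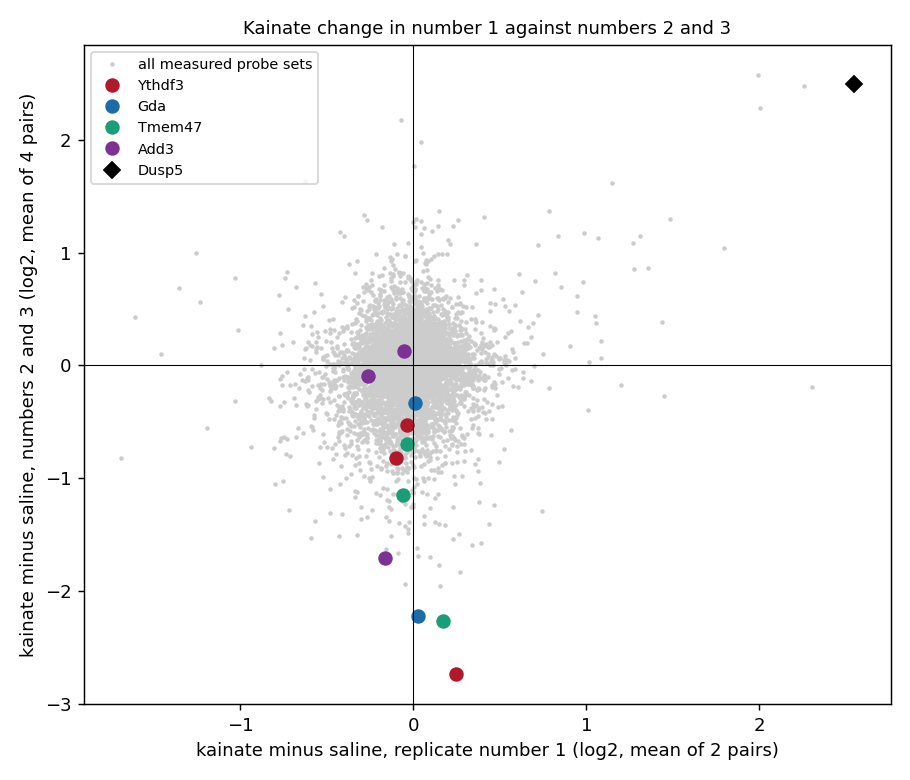
Kainate minus saline on the log2 scale in replicate number 1 (horizontal axis, mean of both genotypes) against numbers 2 and 3 (vertical axis, mean of 4 pairs) for 6334 probe sets, with the 11 probe sets of the 4 genes in colour and Dusp5 in black. The lowest coloured points, at -2.74 for Ythdf3, -2.26 for Tmem47 and -2.22 for Gda, lie close to 0 on the horizontal axis, whereas Dusp5 is high on both.

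Disagreement between probe sets of a gene was set beside that of other genes. For each of 1017 genes with at least 2 measured probe sets, the span was taken as the highest minus the lowest kainate difference among its probe sets, averaged over the 6 pairs. The median span was 0.23 and the highest was 1.56. Ythdf3 had a span of 1.38 (rank 3 from the top), Add3 of 1.26 (rank 6), Gda of 1.25 (rank 7) and Tmem47 of 0.97 (rank 23). The ranks describe how the genes were chosen.

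**Figure D4:**
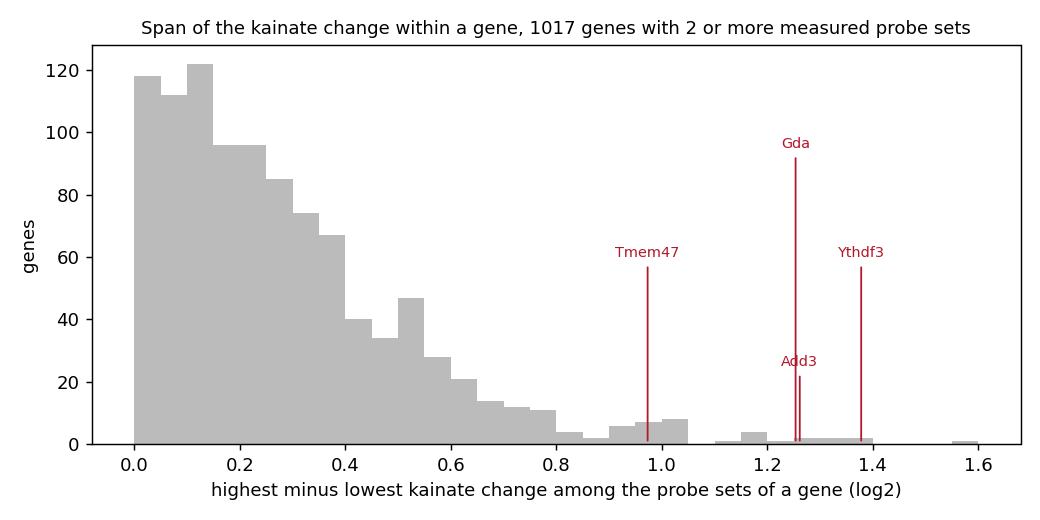
Number of genes (vertical axis) by the span of the kainate difference among their probe sets (horizontal axis, log2) for 1017 genes with at least 2 measured probe sets. Most genes lie near the median of 0.23, and the 4 named genes lie between 0.97 and 1.38.

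By replicate number, with the differences averaged over both genotypes, the spans differed. In number 1 they were 0.35 for Ythdf3 (rank 215), 0.23 for Tmem47 (rank 385), 0.21 for Add3 (rank 450) and 0.02 for Gda (rank 974), beside a median of 0.18 over all 1017 genes. In numbers 2 and 3 they were 2.21 (rank 2), 1.56 (rank 15), 1.84 (rank 6) and 1.89 (rank 5), beside a median of 0.33. Averaged over genotypes, the probe sets of each of the 4 genes thus disagreed more in numbers 2 and 3, where the kainate differences were large. For Gda in number 1 the average hides a gap within each genotype. There 115573_at and 164069_at had differences of 0.42 and -0.11 in labelled mutants and of -0.40 and 0.16 in controls. Where each probe set lies on its transcript was not analysed here.

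RNA quality controls on the arrays were read beside these differences. The 3′ minus 5′ value of the beta-actin controls lay between 1.61 and 1.82 in kainate arrays numbered 2 and 3 and between 1.51 and 1.82 in the saline arrays of these numbers, which overlapped. By numbers 1, 2 and 3 it was 1.44, 1.61 and 1.81 with kainate against 1.71, 1.62 and 1.64 with saline in labelled mutants. In controls it was 1.62, 1.82 and 1.74 against 1.74, 1.82 and 1.51. In both genotypes it was thus lower with kainate in number 1, nearly the same in number 2 and higher in number 3. The 3′ minus 5′ value of the Gapdh controls in numbers 2 and 3 lay between -0.21 and -0.03 in the kainate arrays and between -0.33 and -0.21 in the saline arrays. In number 1 the Gapdh value was -0.42 with kainate against -0.40 with saline in labelled mutants and -0.39 against -0.36 in controls. The Gapdh value was thus higher with kainate in numbers 2 and 3 and not in number 1. These are the numbers by which the kainate differences of the 4 genes also parted. The part of either control value in the differences was not tested.

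Cell type markers were read in the same way. The 7 measured principal neuron markers had median kainate differences of 0.09 in labelled mutants and -0.05 in controls, with none passing. Their summed linear values overlapped between treatments in both genotypes. Of 16 astrocyte markers 10 were measured, and their median kainate difference was -0.01 in labelled mutants and 0.02 in controls, with none passing. Members went both ways, with Slc1a3, a glutamate transporter, at -0.89 and -0.88 by 1 of its 2 measured probe sets (span 0.65). Ppp1r3c, a glycogen-targeting phosphatase subunit, was at 0.48 and 0.33. The summed linear values of the 10 astrocyte markers ranged from 15797 to 16416 in labelled mutant kainate arrays, against 16332 to 17583 in labelled mutant saline arrays. In controls they ranged from 13316 to 15179 in kainate arrays, against 14355 to 14869 in saline arrays. Of 11 interneuron markers 3 were measured (Cnr1, Gad2 and Maf), with medians of -0.29 in labelled mutants and -0.70 in controls and none passing. Gad2, a synthetic enzyme of GABA, was at -0.84 and -1.26, and its probe set and that of Slc1a3 are among the 24 with the course by number described above. The summed linear values of the 3 interneuron markers ranged from 1327 to 1808 in labelled mutant kainate arrays, against 1461 to 1901 in labelled mutant saline arrays, and from 1244 to 1396 in control kainate arrays, against 1667 to 2010.2 in control saline arrays. In controls the interneuron sums were thus lower with kainate without overlap, over 3 genes, and the share of all probe sets without overlap was not counted. Each measured marker was above 4 in at least 3 arrays.

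Shorter lists were read too. For 2 of 10 choroid plexus markers (Clic6 and Sostdc1) the sums ranged from 212 to 333 in labelled mutant kainate arrays, against 167 to 476 in labelled mutant saline arrays, and from 143 to 259 in control kainate arrays, against 311 to 324 in control saline arrays. For 4 of 13 microglia markers they ranged from 337 to 387 in labelled mutant kainate arrays, against 262 to 350 in labelled mutant saline arrays, and from 238 to 264 in control kainate arrays, against 214 to 222 in control saline arrays. In controls neither list overlapped between treatments, choroid plexus being lower with kainate and microglia higher. These lists hold 2 and 4 measured genes, and how often so few genes part between treatments was not counted. Medians were -0.24 and -1.05 for choroid plexus, 0.27 and 0.28 for microglia, -0.23 and -0.33 for 3 oligodendrocyte markers and 0.12 and -0.13 for 3 endothelial markers in labelled mutants and controls, and none of these markers passed. The sums of the last pair of lists overlapped between treatments in both genotypes. The part of these cell types in the differences of the 4 genes was not tested.

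The comparison of genotypes was not used to choose the genes and was tested. Over the 11 probe sets none passed for labelled mutant against control with saline, where 0% of all tested probe sets passed. None passed with kainate, where 0.0632% of all passed, or averaged over both treatments, where 0.253% passed (limma with Benjamini-Hochberg adjustment). At an unadjusted p under 0.05 there were 0, 1 and 1 of the 11, beside 3.88%, 4.67% and 6.47% of all tested. With the replicate number as a block none of the 11 passed in any of these comparisons.

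The largest genotype difference was that of 111578_at of Tmem47. It averaged 9.26 in labelled mutant arrays and 8.72 in control arrays over both treatments, a difference of 0.55 (SE 0.197, limma adjusted p = 0.603). With kainate it averaged 8.94 ± 0.56 in labelled mutant arrays and 8.25 ± 0.41 in control arrays (SD, n = 3 each), a difference of 0.69 (SE 0.279, limma adjusted p = 0.914). The second Tmem47 probe set, 107774_at, differed by 0.35 (SE 0.415) and the third, 106831_at, by 0.05 (SE 0.138) over both treatments. All 3 averages were higher in labelled mutants, and none of the differences passed. The SEs leave out the pairing of arrays by replicate number.

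For the other genes the averaged genotype differences were below their SE for all probe sets but 110854_at of Add3. These SEs leave out the pairing by number, so they do not measure the spread of the genotype differences within numbers. Ythdf3 gave -0.32 (SE 0.526) for 114560_at, 0.02 (SE 0.196) for 105209_at and 0.05 (SE 0.145) for 111252_at. Gda gave -0.24 (SE 0.531) for 164069_at and -0.05 (SE 0.193) for 115573_at. Add3 gave 0.43 (SE 0.438) for 162765_at, 0.15 (SE 0.168) for 113593_at and 0.13 (SE 0.0906) for 110854_at (limma adjusted p = 0.999 for the last). Errors were largest in 164069_at and 114560_at, whose arrays also spread widely within groups.

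The kainate difference of labelled mutants minus that of controls ranged from -0.42 (106831_at of Tmem47, SE 0.277) to 0.36 (162765_at of Add3, SE 0.876). It is built from the values that chose the genes and was not tested. For the lowest probe sets it was 0.36 (SE 1.05) for 114560_at of Ythdf3, 0.12 (SE 1.06) for 164069_at of Gda and -0.04 (SE 0.829) for 107774_at of Tmem47, errors that leave out the pairing by number. By numbers 1, 2 and 3 it was 0.23, 0.40 and 0.45 for 114560_at, with an SD of 0.115, and -0.27, 0.13 and 0.50 for 164069_at, with an SD of 0.386. It had 1 sign in all 3 numbers for 114560_at and 105209_at of Ythdf3, 106831_at of Tmem47 (-0.51, -0.49 and -0.26) and 113593_at of Add3 (-0.27, -0.37 and -0.41), and changed sign between numbers for the other probe sets.

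Likeness among the 11 probe sets was taken as Pearson's r over the 12 arrays after the mean of the 4 arrays of each number was subtracted. It is a description, and the probe sets share the arrays. The genes were chosen for lower values with kainate, and a high r can follow from that choice. The Gda probe set 164069_at was over 4 in only 4 of the 12 arrays. 114560_at of Ythdf3 and 164069_at of Gda had an r of 0.987, and of 0.547 for the deposited values, where number 1 differs. Both correlated with 107774_at of Tmem47 (0.923 and 0.927). Within genes r was lower for Gda (0.632), and for the Add3 probe sets 110854_at and 113593_at it was 0.015 and 0.233 with 162765_at. Within Tmem47 it ranged from 0.795 to 0.927 and within Ythdf3 from 0.782 to 0.935.

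Among all other genes, those most like each probe set were named by the same measure. For 114560_at they were, besides 164069_at of Gda, Pdcl (0.984) and Relch (0.981). For 164069_at they were 114560_at of Ythdf3, Sall2 (0.985) and Selenot (0.984). For 107774_at of Tmem47 they were Zbtb18 (0.986), Nadk2 (0.982) and Zbtb41 (0.979), and for 162765_at of Add3 they were Msl1 (0.981), Slc49a4 (0.979) and Cand1 (0.972). Apart from 114560_at and 164069_at themselves, these probe sets had mean kainate differences from -0.53 (Msl1) to -1.93 (Selenot) in numbers 2 and 3 and from -0.09 (Zbtb41) to 0.18 (Relch) in number 1. Each name stands for 1 probe set. Pdcl and Relch had 2 measured probe sets each, with spans of the kainate difference of 1.02 and 0.80, so their likeness does not stand for the gene.

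The remaining probe sets had other neighbours. 105209_at of Ythdf3 was most like Fcho2 (0.981), Dr1 (0.976) and Fstl5 (0.974), and 111252_at like Fstl5 (0.955), Vamp7 (0.951) and Ebag9 (0.943). 111578_at of Tmem47 was most like Ctso (0.980), Mapk1ip1l (0.967) and Crk (0.966), and 106831_at like Senp6 (0.969), Srsf11 (0.965) and Gas7 (0.963). 115573_at of Gda was most like Stx17 (0.924), Ap5m1 (0.921) and Dgkh (0.917). For these Add3 probe sets the values were lower, with Cadm4 (0.911), Ube2v1 (0.888) and Fiz1 (0.883) for 110854_at and Mrps6 (0.837), Zbtb43 (0.775) and Prkrip1 (0.754) for 113593_at.

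Other genes of the pathways around the 4 genes were counted for kainate beside the 0.174% and 0.158% of all tested probe sets that passed in labelled mutants and in controls, shares at which lists of this size hold few or no calls. Of 25 genes of the N6-methyladenosine pathway 11 were measured, 0 passed in either direction, and their median difference was -0.09 in labelled mutants and -0.06 in controls, beside -0.04 and 0.02 over all tested probe sets. The largest averaged over both genotypes were those of Prrc2a, a reader of the mark (0.41 and 0.50), and Zc3h13, a part of the methyltransferase complex (-0.25 and -0.41). Each is read from 1 of 2 measured probe sets, with spans of 0.39 for Prrc2a and 0.32 for Zc3h13. Neither Ythdf1 nor Ythdf2 had a probe set of its own among those used here.

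Of 35 listed names in purine interconversion and breakdown 7 genes were measured and 0 passed, with medians of 0.01 in labelled mutants and -0.09 in controls. Prps2, a synthetase of the purine precursor PRPP, had a difference of -0.10 in labelled mutants and -0.80 in controls (limma adjusted p = 0.978 and 0.424), and Ampd2, an AMP deaminase, had 0.32 and 0.04. Of 44 listed names of junction and claudin family genes 9 were measured and 0 passed, with medians of 0.00 and -0.04. The largest were Cldnd1, a claudin domain protein (-0.15 and -0.38), and Nectin1, a junction adhesion molecule (0.17 and 0.21).

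Of 35 listed names of the spectrin and actin membrane skeleton 9 were measured and 0 passed, with medians of -0.02 in labelled mutants and 0.10 in controls. Tmod3, which caps the pointed ends of actin filaments, had 0.61 and 0.39 in its brightest probe set. Its 2 measured probe sets had a span of 0.93, so these values do not stand for the gene. Ank2, an ankyrin that anchors spectrin, had -0.48 and -0.48. Add2, the beta-adducin that pairs with other adducins, had 2 probe sets with differences of 0.01 and 0.05 in labelled mutants and 0.05 and 0.00 in controls. Both Add2 probe sets were thus level on average, as was 110854_at of Add3. Over both genotypes the Add2 probe sets were at -0.19 and -0.22 in number 1 and at 0.13 and 0.14 in numbers 2 and 3.

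With replicate numbers 2 and 3 alone, a choice made after the data were seen, 7 of the 11 probe sets passed for kainate in labelled mutants and 5 of 11 in controls, where 9.41% and 10.1% of all tested probe sets passed (limma adjusted p under 0.05). These are the differences by which the genes were chosen, and the counts are no independent support. The lone pair per genotype numbered 1 allows no test of its own.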

How the data were processed

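The deposited table held 1 log2 value per probe set and array, which the authors computed by GCRMA in R 2.4.1, per the submitters' processing notes. The settings are not stated there, and the log2 scale was judged from the values. Gene symbols came from the platform annotation, and 178 probe sets with several symbols were not named. limma 3.58.1 in R 4.3.3 estimated 4 group means from the 12 arrays (eBayes with an intensity trend) for the 6334 of 12411 probe sets above 4 on 3 or more arrays. Benjamini-Hochberg adjustment ran over all of them within each comparison, with a threshold of 0.05. The calculation was tested on simulated data with independent noise per array. Those data lack the deviations shared by arrays of the same number, so the test does not cover them.

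The labels call the replicates biological, and p-values measure the spread between these pools. Arrays of the same number in different groups deviated together (18 of 18 pairs correlated over 0.1, r from 0.361 to 0.881). Arrays of different numbers in different groups correlated from -0.782 to 0.583, and 12 of these 36 pairs were over 0.1. These 12 joined an array numbered 2 with an array numbered 3 (r from 0.309 to 0.583). The values thus set number 1 apart from numbers 2 and 3. They do not show that arrays numbered 2 or 3 are paired by number.

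The genes, lists and rules were chosen with earlier results of these data known. Every probe set of the 4 genes is named. For each, the 3 probe sets of other genes with the highest number-centred r are named, and from each pathway list those that passed and the 2 with the largest mean difference. A listed gene was represented by its brightest probe set. Alternatives were the block, other scalings and filters, no trend, pairs of groups alone and leaving out each array.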

Additional observations from a re-analysis of the deposited data

How the results depend on the processing

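None of the 11 probe sets passed for genotype under any alternative, and none passed for kainate under any that kept number 1. With numbers 2 and 3 alone, an alternative added once the data had been seen, 7 passed in labelled mutants and 5 in controls, or 7 and 6 with the block. Over all probe sets, the counts for kainate in labelled mutants, kainate in controls, genotype with saline, genotype with kainate and genotype averaged were 11, 10, 0, 4 and 16. With the replicate number as a block they were 23, 37, 9, 7 and 147, with numbers 2 and 3 alone 596, 637, 5, 12 and 46, and with the block as well 730, 791, 9, 15 and 80. With the 2 groups alone the first 4 were 2, 4, 1 and 0. For genotype averaged, quantile normalization gave 25 and median centring 10. Leaving out each array gave 6 to 17, 4 to 14, 0 to 1, 1 to 5 and 3 to 16. Of the 22 mean kainate differences of single probe sets, 16 moved by over 1.5 times or turned sign when 1 array was left out, among them 115573_at of Gda in labelled mutants (-0.43 to 0.13) and 162765_at of Add3 in labelled mutants (-1.63 to -0.55), and 4 turned sign. Only 115573_at of Gda in controls moved past its SD over numbers (-0.47 with median centring, -0.17 to -0.47 without an array, beside -0.33), an SD that is wide where number 1 differs. Of 33 probe sets named for likeness, 11 were named also with the deposited values. The cause of these shifts was not tested. The 3 pools per group and signals near background, as in 164069_at of Gda, limit the precision.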
